A study of Mus musculus with 4 samples.

Results

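The genes described here are those of hepatic de novo lipogenesis, the synthesis of new fatty acids from acetyl-CoA, and they comprise 6 enzymes (Acly, Acaca, Acacb, Fasn, Elovl6 and Me1), the transcription factors Srebf1 and Mlxipl, and the lipogenic proteins Thrsp and Pnpla3. They were taken from the table by gene symbol, with earlier results of these data known. All 10 were found among the 22103 entries of the deposited expression table, and 9 of them were among the 12346 genes that entered the test, for which the mean over the livers had to reach 0.1 FPKM. FPKM, the fragments mapped to a transcript per unit of its length and of library size, therefore a level that can be compared between genes.

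Whole-liver RNA was sequenced from 2 wild type (WT) mice and 2 Brg1 LKO mice, labelled KO, to compare livers with and without hepatocyte Brg1 after alcohol. Brg1 is the ATPase of the SWI/SNF chromatin remodelling complex and is encoded by Smarca4. The LKO mice carried floxed Smarca4 alleles and Alb-Cre, which is active in hepatocytes, so the other cells of the liver kept the gene, and the WT mice were littermates whose own alleles are not given in the sources used here. All 4 mice drank alcohol for 15 days per the labels, and the study's methods describe male mice of 8 weeks on the NIAAA procedure, an ethanol liquid diet for 2 weeks followed by a single ethanol gavage. No liver without alcohol was analysed here, so each comparison is between genotypes under alcohol. The strain of these mice is not given in the sources used here.

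In lipogenesis, citrate leaves the mitochondrion and is cleaved to cytosolic acetyl-CoA, which is carboxylated to malonyl-CoA and condensed by fatty acid synthase into palmitate. The NADPH for this synthesis comes in part from malic enzyme. In liver, insulin drives the pathway through SREBP-1c, the product of Srebf1, and glucose drives it through ChREBP, the product of Mlxipl, and alcohol feeding is a known cause of fat accumulation in hepatocytes.

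The targeted gene was examined first. Smarca4 (ENSMUST00000098948) stood at 1.78 and 1.95 FPKM in WT against 0.608 and 0.579 FPKM in LKO. Both LKO livers were far below both WT livers, and their mean was 31.8% of the WT mean. The fall of Smarca4 passed the study's threshold, an unadjusted limma p under 0.05 with a change of more than 2-fold, with a log2 fold change of −1.50 and a standard error of 0.34 (adjusted p = 1.00, limma with Benjamini-Hochberg adjustment). Log2 fold changes are on the log2(FPKM + 0.1) scale, which understates the change of low genes. In whole-liver RNA, fewer cells of a type and less RNA per cell cannot be told apart. Low FPKM values stepped with the worth of 1 read, and these steps gave estimated totals of 72579800 to 80899800 reads per liver, with no large gap between genotypes. Whether these steps count reads or read pairs is not known. Ranked levels of all genes gave Spearman's rho from 0.957 to 0.983 between livers, across genes, which are not independent replicates. The highest value was between the WT livers and the lowest between the LKO livers. Pairs of a WT and an LKO liver lay between, at 0.969 to 0.979. WT replicate 2 exceeded WT replicate 1 in 80.3% of all genes.

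Promoter sequences were read from RefSeq (GRCm38.p6) for the genes whose values stand out below, Fasn, Acly and Elovl6 for their higher levels in both LKO livers and Thrsp for its level in a single LKO liver. The RefSeq window for Acaca lies away from the start of the transcript listed in the table and is not shown. For Thrsp the listed transcript starts at 97417730, inside the window shown. Part of that window, with both of its CCAAT boxes, therefore lies within the span of the listed transcript. Each sequence gives the 250 bases before the annotated start, 5′ to 3′ on the gene's own strand, with capitals for a CCAAT box, the site of NF-Y, or a GGGCGG box, the site of Sp1, on either strand.
Fasn, chr11:120824548-120824797, minus strand: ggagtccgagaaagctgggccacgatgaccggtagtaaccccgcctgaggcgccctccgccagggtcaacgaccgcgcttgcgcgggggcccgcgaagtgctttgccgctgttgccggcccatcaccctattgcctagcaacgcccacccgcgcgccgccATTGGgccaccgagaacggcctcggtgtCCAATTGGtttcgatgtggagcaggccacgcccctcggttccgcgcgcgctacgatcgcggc
Acly, chr11:100528001-100528250, minus strand: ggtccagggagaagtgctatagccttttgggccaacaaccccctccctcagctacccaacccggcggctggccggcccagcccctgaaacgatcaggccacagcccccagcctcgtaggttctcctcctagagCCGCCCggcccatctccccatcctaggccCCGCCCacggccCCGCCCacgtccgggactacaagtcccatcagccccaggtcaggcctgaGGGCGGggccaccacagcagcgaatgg
Elovl6, chr3:129532136-129532385, plus strand: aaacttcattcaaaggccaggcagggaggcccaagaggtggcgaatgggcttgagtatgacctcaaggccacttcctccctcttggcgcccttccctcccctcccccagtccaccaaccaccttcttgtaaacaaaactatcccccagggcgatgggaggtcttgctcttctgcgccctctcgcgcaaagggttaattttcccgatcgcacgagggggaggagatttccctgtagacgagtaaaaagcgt
Thrsp, chr7:97417551-97417800, minus strand: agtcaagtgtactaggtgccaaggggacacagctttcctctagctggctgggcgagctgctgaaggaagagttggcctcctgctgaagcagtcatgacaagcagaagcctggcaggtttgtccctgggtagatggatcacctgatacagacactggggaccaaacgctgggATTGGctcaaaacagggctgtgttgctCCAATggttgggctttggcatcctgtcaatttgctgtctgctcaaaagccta
In Fasn the reverse of CCAAT began 90 bases before the start, and a palindromic pair of CCAAT boxes, 1 on each strand and overlapping, began 62 bases before it. Thrsp held a reverse CCAAT at −79 and a forward one at −52, counted from the RefSeq start. Acly held 4 GGGCGG boxes in the stretch shown, at −117, −88, −76 and −27, of which the first 3 are on the reverse strand. Elovl6 held none of the motifs searched.

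Over the 14 RefSeq promoter windows of the 10 members, which run from 250 bases before to 50 bases after each start, CCAAT was found in 9 windows of 8 members, against 37.4% of all 32851 windows. GGGCGG was found in 6 windows of 5 members, against 35.7% of all windows. The E-box CACGTG, bound by ChREBP, USF and SREBP proteins, occurred in 1 member window, that of Mlxipl, against 7.15% of all. TATAAA occurred in 1 member window, that of Acacb, against 13.6% of all. These windows of Mlxipl and Acacb lie away from the starts of the listed transcripts. So do the windows of Acacb, Mlxipl and Srebf1 counted for CCAAT. Of those counted for GGGCGG, the windows of Me1 and Mlxipl and a window of Srebf1 do too. The sterol element core CACCCCAC was found in none of the member windows, against 2.87% of all, and a pair of CACGTG boxes 5 bases apart was found in 0 windows of any gene. A motif match describes these letters only.

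**Figure D1:**
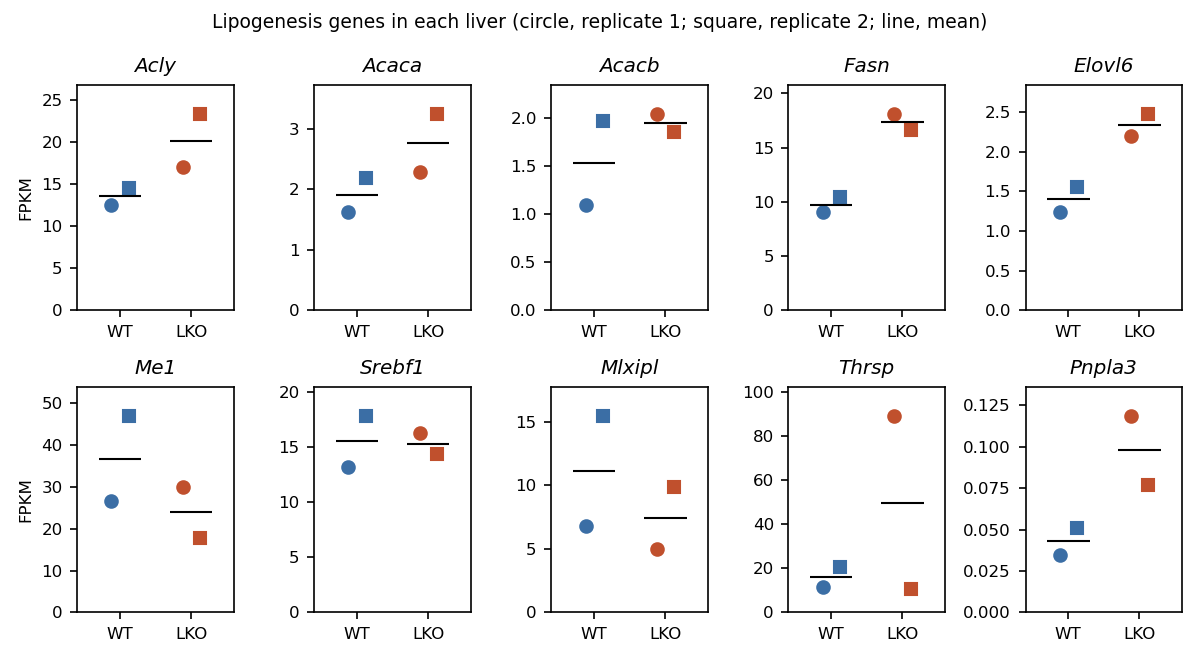
FPKM of the 10 lipogenesis genes in each of the 4 livers, with WT in blue, LKO in red, circles for replicate 1, squares for replicate 2 and a line at the group mean (each y axis starts at 0 and has its own range). Both LKO points lie above both WT points for Acly, Acaca, Fasn, Elovl6 and Pnpla3, and Thrsp reaches 89.2 FPKM in LKO replicate 1 and 10.6 FPKM in LKO replicate 2.

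None of the 9 members tested passed that threshold, which 0.980% of all genes tested passed, and each of the 9 had an adjusted p = 1.00 (limma with Benjamini-Hochberg adjustment). Fasn had the lowest unadjusted p of the members, with an LKO mean 1.78 times the WT mean, and Thrsp was past 2-fold but not past the p threshold. Acly, Acaca, Fasn and Elovl6 were higher in both LKO livers than in either WT liver, as was Pnpla3, which lay under the filter for testing. The groups did not overlap for 4 of the 9 tested members, against 20.7% of all genes tested, and all 4 had both LKO livers above both WT livers, against 10.7% of all genes. The median log2 fold change of the 9 members was 0.51, beside −0.024 over all genes tested, with 6 members above 0 and 3 below.

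ATP citrate lyase, encoded by Acly (ENSMUST00000107389, chr11:100476353-100528000, minus strand, 29 exons), cleaves citrate to acetyl-CoA at the entry to the pathway. Acly measured 12.6 and 14.6 FPKM in WT against 17.0 and 23.4 FPKM in LKO. The groups did not overlap, with LKO replicate 2 clearly the highest. The LKO mean of 20.2 ± 4.50 FPKM (SD, n = 2) was 1.49 times the WT mean of 13.6 ± 1.42 FPKM (SD, n = 2). This gave a log2 fold change of 0.55 with a standard error of 0.34 and a 95% interval of −0.17 to 1.28. Single LKO livers exceeded single WT livers by 1.17 to 1.86 times.

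Acetyl-CoA carboxylase makes malonyl-CoA, from the cytosolic isoform Acaca for synthesis and from the mitochondrial isoform Acacb, whose malonyl-CoA restrains the entry of fatty acids into mitochondria. Acaca (ENSMUST00000103201, chr11:84173122-84401651, plus strand, 56 exons) measured 1.63 and 2.18 FPKM in WT against 2.28 and 3.24 FPKM in LKO. The groups did not overlap, but LKO replicate 1 was only 1.05 times WT replicate 2. Acaca had a log2 fold change of 0.51 with an interval of −0.25 to 1.27. Acacb (ENSMUST00000102582, chr5:114146535-114250761, plus strand, 53 exons) measured 1.09 and 1.97 FPKM in WT against 2.04 and 1.85 FPKM in LKO. Here the groups overlapped and WT replicate 1 stood alone at the low end. For Acacb the log2 fold change was 0.38 with an interval of −0.41 to 1.17, and without WT replicate 1 it was −0.017. The level of Acaca relative to Acacb was 1.49 and 1.11 in WT and 1.12 and 1.76 in LKO, so the groups overlapped in part.

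Fatty acid synthase, encoded by Fasn (ENSMUST00000055655, chr11:120805846-120824547, minus strand, 43 exons), builds palmitate from malonyl-CoA and had the most reads of the members over the 4 livers together, an estimated 7367 to 14221 per liver. Fasn measured 9.06 and 10.4 FPKM in WT against 18.1 and 16.6 FPKM in LKO. The livers of each genotype lay close together and the genotypes lay well apart, so that single LKO livers exceeded single WT livers by 1.60 to 2.00 times. Fasn was the only member with an unadjusted p under 0.05, which 2.00% of all genes tested reached. Its log2 fold change was 0.83 with a standard error of 0.33 and an interval of 0.12 to 1.54, or 1.09 to 2.90 times. After adjustment 0 of the 12346 genes had a limma p under 0.05, while 247 had an unadjusted p under 0.05. In all, 1.37% of the genes tested had a higher log2 fold change than Fasn. Leaving out each liver in turn kept the log2 fold change of Fasn between 0.73 and 0.93, but its unadjusted p stayed under 0.05 only without WT replicate 2 and not without WT replicate 1, LKO replicate 1 or LKO replicate 2.

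Elovl6 (ENSMUST00000071402, chr3:129532386-129638495, plus strand, 5 exons) encodes the elongase that extends palmitate to stearate. Its levels were 1.25 and 1.56 FPKM in WT and 2.20 and 2.48 FPKM in LKO. As with Fasn, the groups did not overlap and each was compact, with means of 1.40 ± 0.220 and 2.34 ± 0.198 FPKM (SD, n = 2). The LKO mean was 1.67 times the WT mean, and the log2 fold change was 0.71 with an interval of −0.022 to 1.43. The estimated reads of Elovl6, 600 to 1071 per liver, were the fewest among the tested enzymes.

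Malic enzyme, encoded by Me1 (ENSMUST00000185374, chr9:86581406-86687277, minus strand, 14 exons), supplies NADPH and did not share the pattern of the synthesis enzymes. Its levels were 26.5 and 46.9 FPKM in WT and 30.0 and 17.9 FPKM in LKO. The groups overlapped, since LKO replicate 1 lay above WT replicate 1. Its log2 fold change was −0.61 with an interval of −1.43 to 0.22. Without WT replicate 1 it was −1.01, and without WT replicate 2 it was −0.20.

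**Figure D2:**
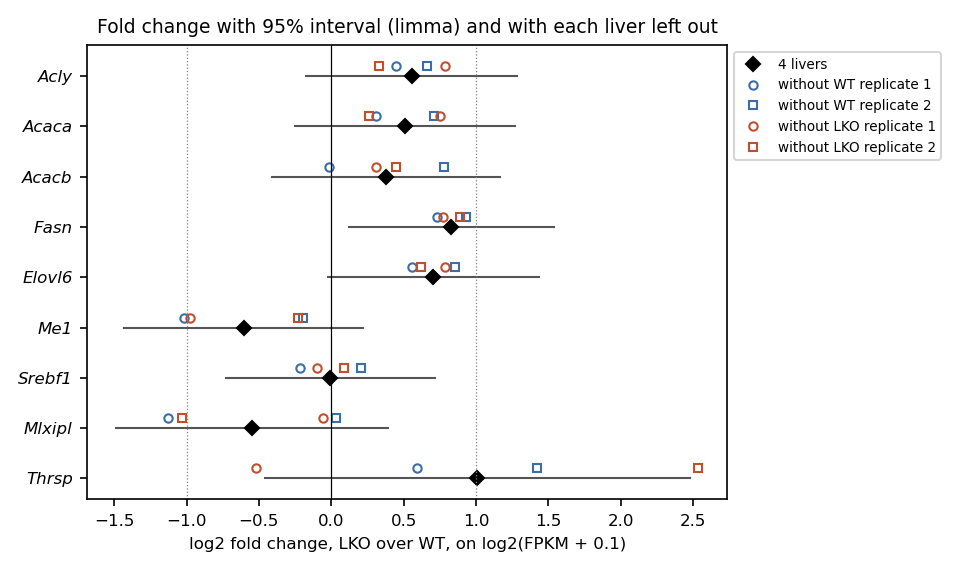
Log2 fold change of LKO over WT on log2(FPKM + 0.1) for the 9 members tested, with the limma estimate from 4 livers (diamond), its 95% interval (bar) and the estimate with each liver left out (open symbols), and dotted lines at a 2-fold change. Only the interval of Fasn, 0.12 to 1.54, excludes 0, and Thrsp runs from −0.52 without LKO replicate 1 to 2.54 without LKO replicate 2.

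The mRNAs of the transcription factors that drive the pathway did not separate the genotypes. Srebf1 (ENSMUST00000020846, chr11:60199089-60220604, minus strand, 19 exons), which encodes the SREBP-1 proteins, measured 13.2 and 17.8 FPKM in WT and 16.3 and 14.3 FPKM in LKO. The LKO values fell between the WT values. Srebf1 had a log2 fold change of −0.0066 with an interval of −0.73 to 0.72, or 0.603 to 1.64 times the WT level. The table lists 1 transcript for Srebf1 and does not separate SREBP-1a from SREBP-1c, and mRNA does not show how much of the protein is processed. Mlxipl (ENSMUST00000005507, chr5:135106918-135138382, plus strand, 17 exons), which encodes the glucose-responsive factor ChREBP, measured 6.83 and 15.4 FPKM in WT and 4.96 and 9.86 FPKM in LKO. Replicate 2 was well above replicate 1 in both genotypes, by 2.26 times in WT and 1.99 times in LKO, and the groups overlapped. The log2 fold change of Mlxipl was −0.55 with an interval of −1.49 to 0.39. It was −1.13 without WT replicate 1, −1.04 without LKO replicate 2 and 0.035 without WT replicate 2.

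Set against Srebf1 in the same liver, Acly, Acaca, Fasn and Elovl6 were higher in LKO. The ratio of the Fasn level to the Srebf1 level was 0.685 and 0.587 in WT and 1.11 and 1.16 in LKO. The ratio of Acly to Srebf1 was 0.950 and 0.819 in WT and 1.04 and 1.63 in LKO. The ratio of Elovl6 to Srebf1 was 0.0942 and 0.0875 in WT and 0.135 and 0.173 in LKO. For Acaca over Srebf1, WT gave 0.123 and 0.122 and LKO gave 0.140 and 0.227. None of these ratios overlapped between genotypes, and a ratio within a liver is free of any factor common to all its genes. The numerators were the tested members already without overlap, and Srebf1 differed little, so this separation is not separate evidence. Ratios of Me1 and Acacb to Srebf1, and the share of all genes whose ratio separates, were not computed. The ratios show unequal levels and not which of the genes differed. Fasn relative to Mlxipl was 1.33 and 0.676 in WT and 3.65 and 1.69 in LKO. Of the ratios computed, Acly relative to Acaca varied least over the livers, at 7.72 and 6.70 in WT and 7.45 and 7.20 in LKO.

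Thrsp (ENSMUST00000043077, chr7:97412938-97417730, minus strand, 2 exons) encodes Spot 14, a small protein induced with the lipogenic enzymes by thyroid hormone and carbohydrate. It measured 11.4 and 20.4 FPKM in WT and 89.2 and 10.6 FPKM in LKO. A single liver, LKO replicate 1, held the high value, and the other LKO liver was the lowest of all 4. The LKO livers thus differed by 8.40 times, with estimated reads of 8901 and 985, and the group means of 15.9 ± 6.36 and 49.9 ± 55.6 FPKM (SD, n = 2) do not describe 2 alike livers. The fitted log2 fold change of 1.01 had an interval of −0.46 to 2.48. Without LKO replicate 1 it was −0.52, and without LKO replicate 2 it was 2.54. In each of these fits the lone LKO liver is assumed to vary like the WT livers. Mid1ip1, which encodes the paralogue of Spot 14 that activates acetyl-CoA carboxylase, fell in LKO livers, from 2.07 and 3.17 FPKM to 1.23 and 1.01 FPKM. Its log2 fold change was −1.14 with a standard error of 0.35 (limma, adjusted p = 1.00), and without WT replicate 2 it was −0.84 and no longer past the threshold. Thrsp relative to Mid1ip1 was 5.53 and 6.45 in WT against 72.7 and 10.5 in LKO.

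Pnpla3 (ENSMUST00000045289, chr15:84167837-84186206, plus strand, 8 exons), which encodes a lipid droplet protein also called adiponutrin, was near the limit of detection. It measured 0.0346 and 0.0512 FPKM in WT and 0.119 and 0.0772 FPKM in LKO. These correspond to an estimated 4 and 5 reads in WT and 12 and 7 reads in LKO, so although both LKO values were higher, the difference rests on a handful of reads. Its mean lay under the filter of 0.1 FPKM, and it was not tested in the main comparison. With no filter its log2 fold change was 0.46 (limma, adjusted p = 1.00).

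WT replicate 1 was the lowest of the 4 livers for 6 of the 9 members tested, against 31.5% of all genes, and WT replicate 2 exceeded it for 10 of 10 members. Since most genes were shifted this way between the replicates, the members were also compared after median-ratio rescaling of the livers, by factors of 0.911 and 1.13 in WT and 0.885 and 1.11 in LKO. The livers of a genotype moved closer together for Acly, Acaca and Elovl6, whereas the LKO livers moved apart for Fasn. Fasn stood at 9.95 and 9.26 in WT and 20.5 and 15.0 in LKO on the rescaled FPKM scale. Rescaled Acly was 13.8 and 12.9 in WT and 19.2 and 21.1 in LKO, and rescaled Elovl6 was 1.37 and 1.38 against 2.49 and 2.24. Rescaled Acaca was 1.79 and 1.93 in WT against 2.58 and 2.93 in LKO. The same 5 members had both LKO livers above both WT livers, against 14.9% of all genes after rescaling. WT replicate 2 still exceeded WT replicate 1 for 8 of the 10 members, against 48.6% of all genes. WT replicate 1 was then the lowest liver for 4 of the 10 members, against 15.8% of all genes. The log2 fold changes of Fasn, Acly, Elovl6 and Acaca were then 0.86, 0.59, 0.74 and 0.54 (limma, adjusted p = 1.00 for each), and all 4 had an unadjusted p under 0.05, as did 365 of the 12346 genes tested. No member passed both parts of the threshold on this scale either, although Thrsp was past 2-fold at 1.04, and Srebf1 stayed near 0 at 0.027. With 2 livers in each group, the smallest two-sided p that an exact permutation test of a single gene can give is 0.333.

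The summed level of Acly, Acaca, Fasn and Elovl6 was 24.5 and 28.7 FPKM in WT and 39.6 and 45.7 FPKM in LKO. These 4 are the tested members without overlap, so their sum had to separate too. With Me1 and Acacb added, the sums overlapped, at 52.1 and 77.6 FPKM in WT and 71.7 and 65.4 FPKM in LKO. Most of what was added came from Me1, at 17.9 to 46.9 FPKM per liver, against 1.09 to 2.04 FPKM for Acacb. Among all pairs of members, the profiles over the 4 livers were closest for Acly and Acaca, whose centred log2 values differed by a root mean square of 0.070. Fasn and Elovl6 followed at 0.12, and Mlxipl and Thrsp were farthest apart at 1.63. Among 7724 genes whose mean reached 1 FPKM, those nearest to the mean profile of the members were Pck1, Txnrd1, Zfp36l1, Map2k3 and Prnp, at root mean square distances of 0.015 to 0.043. That mean profile is low in WT replicate 1 and highest in LKO replicate 1. Its height there rests largely on Thrsp, at 89.2 FPKM against 10.6 to 20.4 FPKM in the other livers. The profile was not computed without Thrsp.

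**Figure D3:**
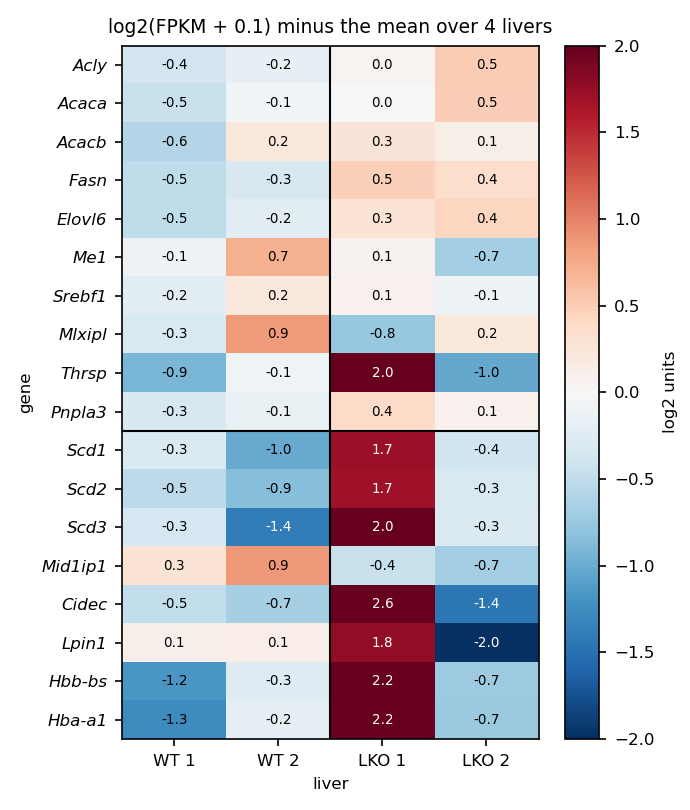
Log2(FPKM + 0.1) of the 10 members (above the horizontal line) and of related genes (below it) in each liver, minus the gene's mean over the 4 livers, where red is higher, blue is lower, the colour is capped at 2 log2 units in either direction and the number in each cell is the value. Fasn and Elovl6 are red in both LKO livers, while Thrsp shares its single high liver, LKO replicate 1, with Scd1, Scd2, Scd3, Cidec, Lpin1 and the globins.

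The profile of Thrsp was compared with the same 7724 genes after its values had been seen. The 4 nearest were globin genes of red blood cells, Hbb-bt, Hbb-bs, Hba-a2 and Hba-a1, at root mean square distances of 0.17 to 0.24 on the log2 scale. Hbb-bs measured 7.27 and 13.8 FPKM in WT and 73.5 and 9.86 FPKM in LKO, and Hba-a1 measured 2.46 and 5.30 FPKM in WT and 27.5 and 3.57 FPKM in LKO. The next nearest was Cidec, a lipid droplet fusion protein, at 5.01 and 4.45 FPKM in WT and 43.8 and 2.55 FPKM in LKO. Cidec is also made by adipocytes and was listed among their markers. Of the other adipocyte markers, Lep, Retn and Cfd were at 0 in all 4 livers. Adipoq and Plin1 did not exceed 0.0401 FPKM in any liver. Lpin1, a phosphatidate phosphatase of triglyceride synthesis, measured 21.0 and 21.6 FPKM in WT and 67.3 and 4.81 FPKM in LKO. Its LKO livers lay on opposite sides of both WT livers. The parts of blood RNA in the Thrsp value and of adipocyte RNA in the Cidec value were not tested.

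The wider pathway was described with lists of genes around the members. Of 15 tested genes of substrate and NADPH supply, 0 passed the threshold in either direction, with a median log2 fold change of 0.22. Me2, which encodes the mitochondrial relative of the malic enzyme Me1, had the largest estimate. Me2 measured 0.191 and 0.240 FPKM in WT and 0.563 and 0.421 FPKM in LKO, with no overlap. Its log2 fold change was 0.90 with a standard error of 0.36 and an interval of 0.13 to 1.67 (limma, adjusted p = 1.00), and that of Me1 was −0.61. The citrate carrier Slc25a1 measured 46.8 and 68.7 FPKM in WT and 69.7 and 63.1 FPKM in LKO. Khk, the ketohexokinase that phosphorylates fructose, measured 48.7 and 63.2 FPKM in WT and 78.3 and 56.1 FPKM in LKO. For Slc25a1 and Khk, which had the highest levels of the list, the groups overlapped.

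Of 13 genes tested for desaturation and elongation beyond Elovl6, 3 rose past the threshold and 0 fell, with a median of 0.12. These were the stearoyl-CoA desaturases Scd1, Scd2 and Scd3, which make monounsaturated fatty acids from the products of Fasn and Elovl6. Scd1 measured 62.3 and 37.7 FPKM in WT and 249 and 57.7 FPKM in LKO, so LKO replicate 2 lay below WT replicate 1. Scd2 measured 0.671 and 0.512 FPKM in WT and 3.48 and 0.798 FPKM in LKO. Scd3 measured 0.890 and 0.371 FPKM in WT and 4.99 and 0.921 FPKM in LKO. As for Thrsp, LKO replicate 1 was far above the other 3 livers. The log2 fold changes were 1.31, 1.39 and 1.74 (limma, adjusted p = 1.00 for each). Without LKO replicate 1 they were 0.25, 0.39 and 0.58, and without WT replicate 2 they were 0.94, 1.22 and 1.20, and none passed the threshold in either case, nor after median-ratio rescaling, after quantile normalization or with no filter on low values. The 3 genes are close relatives in sequence, and reads shared among them could be split by the authors' counting. Tecr, the reductase that ends each elongation cycle, overlapped between groups at 83.5 and 128 FPKM in WT and 98.6 and 102 FPKM in LKO.

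Of 14 genes tested for triglyceride assembly, 0 passed the threshold in either direction and the median was 0.091. Agpat2 measured 82.8 and 90.5 FPKM in WT and 55.7 and 85.1 FPKM in LKO, and Dgat2, which makes triglyceride from diacylglycerol, measured 64.7 and 92.8 FPKM in WT and 68.2 and 61.3 FPKM in LKO. Their groups overlapped. Lpin3 was the gene of the list with the largest estimate, a log2 fold change of 0.51 with an interval of −0.25 to 1.27.

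Of 27 genes tested among the upstream regulators, 0 rose and 1, Mid1ip1, fell, with a median of −0.051. Nr1h4, the bile acid receptor FXR, measured 38.1 and 54.3 FPKM in WT and 34.0 and 31.9 FPKM in LKO, both below WT, with a log2 fold change of −0.46 and an interval of −1.18 to 0.25. Nr1h3, which encodes LXRα, the oxysterol receptor that activates Srebf1, spanned the whole range within LKO, at 17.3 and 50.1 FPKM against 32.3 and 39.2 FPKM in WT. Insig2, which holds SREBP in the endoplasmic reticulum, measured 195 and 144 FPKM in WT and 384 and 107 FPKM in LKO. The difference between the LKO livers was the larger one for Nr1h3 and for Insig2.

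The sterol arm of SREBP, represented by 14 cholesterol synthesis and uptake genes, gave 0 genes past the threshold in either direction and a median of 0.20. LKO replicate 2 was the highest liver for 13 of these 14 genes. Over all genes tested, it was above LKO replicate 1 by a median log2 of 0.30. Among the members, Acly, Acaca and Elovl6 were also highest in LKO replicate 2, and Acacb, Fasn, Thrsp and Pnpla3 were highest in LKO replicate 1. Without LKO replicate 1 the median of the sterol arm was 0.62, and without LKO replicate 2 it was −0.30. Lss, lanosterol synthase, had the largest estimate, at 1.09 and 1.18 FPKM in WT and 0.966 and 2.83 FPKM in LKO, with the WT livers between the LKO livers. Fdps measured 27.1 and 47.4 FPKM in WT and 40.3 and 55.6 FPKM in LKO, and Sc5d measured 30.3 and 43.0 FPKM in WT and 23.3 and 39.0 FPKM in LKO. Among 10 LXR target genes 0 passed the threshold, with a median of 0.035. Pltp, the phospholipid transfer protein, had the largest estimate, from 8.39 and 9.47 FPKM in WT to 12.0 and 19.6 FPKM in LKO, a log2 fold change of 0.78 with an interval of 0.017 to 1.54. Abca1, the cholesterol exporter, measured 13.1 and 7.52 FPKM in WT and 23.3 and 10.8 FPKM in LKO.

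**Figure D4:**
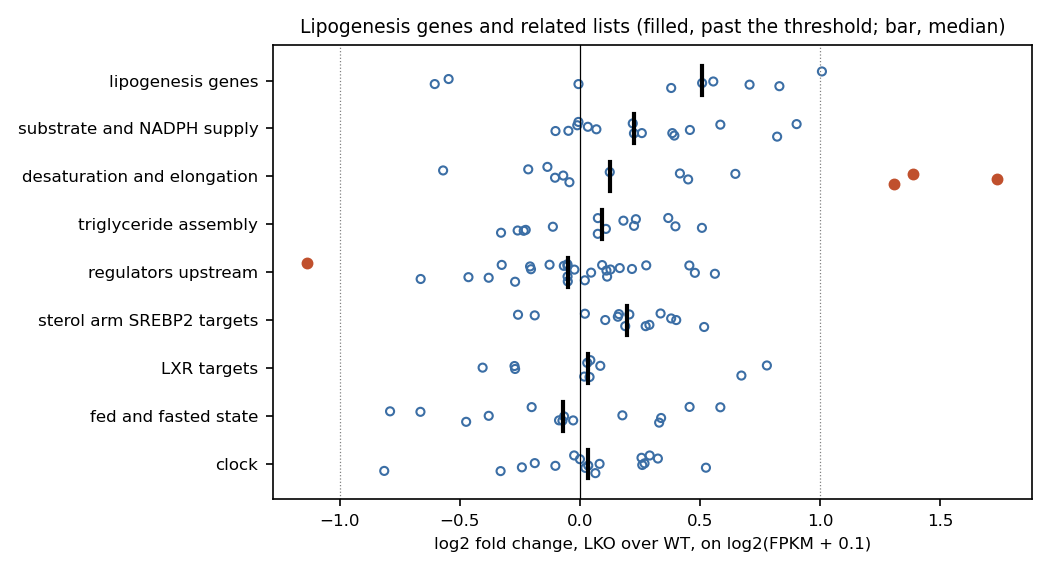
Log2 fold change of LKO over WT on log2(FPKM + 0.1) for each gene tested in the lipogenesis set and in 8 related lists, with the list median as a bar, dotted lines at a 2-fold change and filled points for genes past the threshold. The lipogenesis median stands at 0.51, and the filled points are Scd1, Scd2, Scd3 and Mid1ip1.

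Cell type markers were set beside the members. The 6 hepatocyte markers summed to 13450 to 15570 FPKM in every liver, and 0 of 6 passed the threshold. Most of that sum was Alb, at 10710 to 12490 FPKM. Apob and Cps1 were higher in both LKO livers than in either WT liver, as were 10.7% of all genes tested, and the others overlapped. Tat measured 158 and 158 FPKM in WT and 412 and 126 FPKM in LKO. All 6 macrophage markers had a log2 fold change above 0, as did 46.1% of all genes tested. Their sums were 27.5 and 28.1 FPKM in WT and 35.0 and 73.8 FPKM in LKO. Cd68 and Vsig4 rose past the threshold, which 0.980% of all genes tested passed. Their log2 fold changes were 1.47 and 1.002 (limma, Benjamini-Hochberg adjusted p = 0.9999 for each), so Vsig4 only just passed. Without LKO replicate 2 the log2 fold changes of Cd68 and Vsig4 were 1.05 and 0.15. LKO replicate 2 held the highest value for each macrophage marker, as it did for Acly, Acaca and Elovl6. Fasn and Thrsp were highest in LKO replicate 1, as were 12.2% of all genes tested. The share of all genes highest in LKO replicate 2 was not computed. After median-ratio rescaling, Elovl6 was instead highest in LKO replicate 1, at 2.49 against 2.24 in LKO replicate 2. The 5 sinusoidal endothelial markers all lay below 0, with sums of 21.5 and 22.6 FPKM in WT and 18.5 and 20.8 FPKM in LKO. Stellate markers summed to 3.27 and 4.72 FPKM in WT and 4.18 and 4.03 FPKM in LKO, and biliary markers to 4.10 and 4.67 FPKM in WT and 3.21 and 3.52 FPKM in LKO. Neutrophil markers summed to 11.2 and 4.08 FPKM in WT and 16.0 and 7.64 FPKM in LKO, and pancreatic acinar markers to 1.17 to 2.29 FPKM in any liver. Of the 3 neutrophil markers and the 1 acinar marker that could be tested, 0 passed the threshold. The part of these cell types in the values of the members was not tested.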

How the data were processed

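Whole-liver RNA-seq of 2 WT and 2 LKO livers was used, with groups and replicate numbers from the sample descriptions. Per the study's methods, the authors used Trimmomatic to trim the reads and HISAT2 to place them on GRCm38, and they deposited FPKM values, 1 per entry and liver, with no scaling between livers stated. The methods name Cufflinks for FPKM and HTSeq-count with DESeq for the test, while the submitters' processing notes name HISAT2 2.0.4 and StringTie 2.1.4, and the methods describe stranded Illumina libraries where the labels name a BGIseq protocol. Counts were not used here, so the deposited FPKM were tested on the log scale.

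The table's 22103 entries carried Ensembl transcripts, of which 98.3% had a length, exons and coordinates in GENCODE M21. For transcripts of at least 2000 bases, 88.5% to 89.5% of values up to 20 reads lay within 0.1 of a whole read in each liver, which gave the totals, so reads per gene are estimates. Precision is limited mainly by 2 livers per group. 27 symbols turned into dates were restored, and 4 listed genes stood under older symbols. Acaca overlaps Gm11437 and Srebf1 overlaps Rai1 on the opposite strand, and both neighbours are protein-coding. Genes not annotated as protein-coding overlap Acly, Acaca, Elovl6, Me1, Srebf1 and Pnpla3 on the same strand. Others overlap Acacb, Elovl6, Me1, Mlxipl and Pnpla3 on the opposite strand. Whether reads were counted by strand is not given in the sources used here.

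Under R 4.3.3, limma 3.58.1 was run with lmFit and a trended eBayes on log2(FPKM + 0.1) for the 12346 genes averaging 0.1 FPKM or more, and p-values were adjusted over all of them by Benjamini-Hochberg. Other steps used Python 3.11.15 and SciPy 1.17.1. The threshold was the study's, an unadjusted p under 0.05 and a change over 2-fold. The procedure was tested on simulated data. Alternatives were other pseudocounts, filters and scalings, eBayes without trend, a replicate block and each liver left out. The members, lists and tests were chosen with earlier results of these data known. Named genes were the 10 members, Smarca4, the 5 genes nearest to the mean member profile and, of each list, up to 4 genes past the threshold, the gene with the largest change and the 2 with the highest levels. A few listed genes are not reported here and were left out of the list counts. The globins, Cidec, Lpin1 and the neighbours of Thrsp were chosen after their values were seen, and the macrophage markers Cd68 and Vsig4 were named for passing the threshold.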

Additional observations from a re-analysis of the deposited data

How the results depend on the processing

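Of 108 member values under 12 alternatives, 98 kept direction and side of the threshold, and Acly, Acaca, Fasn, Elovl6 and Me1 kept 1 direction under all 12. The count of members past the threshold was 0 with all livers, against 0.980% of all genes tested. With a liver left out, some log2 fold changes went past 2-fold. These were Me1 and Mlxipl without WT replicate 1, Thrsp without WT replicate 2, and Mlxipl and Thrsp without LKO replicate 2. Srebf1 turned to 0.027 with median-ratio rescaling. With a liver left out, the log2 fold change ran from −0.22 to 0.21 for Srebf1, from −0.017 to 0.78 for Acacb, from −1.13 to 0.035 for Mlxipl and from −0.52 to 2.54 for Thrsp. The median over the members, 0.51, ran from 0.31 to 0.71. Over all genes, 121 passed the threshold, against 18 with a pseudocount of 1, 80 with no filter, 68 with a filter at 1 FPKM, and 78 (without WT replicate 2) to 552 (without LKO replicate 1) with a liver left out. With a pseudocount of 1, Smarca4 was at −0.85 and Mid1ip1 at −0.76, short of 2-fold. Of the genes in the wider lists, 4 passed with all livers, 1 after either rescaling, and 1 (without WT replicate 2) to 19 (without LKO replicate 2) passed with a liver left out. Members with an unadjusted p under 0.05 numbered 4 after median-ratio rescaling (365 of all genes) and 4 after quantile normalization (375), against 1, Fasn, as deposited (247). Fasn lost it in the fits without WT replicate 1, LKO replicate 1 or LKO replicate 2. The cause was not tested. A fit that leaves 1 liver in a group assumes that it varies like the other group.

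What the replicate numbers stand for is not given in the sources used here. Deviations of same-numbered livers correlated at 0.031 over 12346 genes, a measure that cannot show a shift common to all genes. Replicate 2 was above replicate 1 by a median log2 of 0.27 in WT and 0.30 in LKO. Whether same-numbered livers shared a batch was not tested. With a replicate block, 0 members and 108 genes passed the threshold, the member median was 0.51, and Fasn, Elovl6, Acly and Mlxipl had an unadjusted p under 0.05, as did 357 of all genes.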

Other observations

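Genes of the fed and fasted state, listed because lipogenesis follows feeding, gave 0 of 14 tested genes past the threshold and a median log2 fold change of −0.070. Fgf21, a hepatic fasting hormone, had the largest estimate, at 10.5 and 24.9 FPKM in WT and 4.80 and 18.0 FPKM in LKO, with overlap. Pck1, the gluconeogenic enzyme phosphoenolpyruvate carboxykinase, measured 135 and 200 FPKM in WT and 228 and 190 FPKM in LKO, and its groups overlapped. Cyp4a14, a fatty acid hydroxylase and PPARα target, measured 211 and 386 FPKM in WT and 109 and 297 FPKM in LKO, also with overlap.

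Of 17 circadian clock genes, which set the daily rhythm of hepatic lipogenesis, 0 passed the threshold, and the median was 0.034. Npas2, a partner of Bmal1, had the largest estimate, from 0.315 and 0.231 FPKM in WT to 0.136 and 0.0878 FPKM in LKO, a log2 fold change of −0.82 with an interval of −1.61 to −0.023. Nfil3 and Bhlhe40 had the highest levels of the list, at 11.7 to 21.1 FPKM and 3.69 to 6.43 FPKM over the 4 livers. Ciart, a clock repressor named after its values were seen, was highest in LKO replicate 1 and lowest in LKO replicate 2, at 5.20 and 0.469 FPKM, around WT values of 1.59 and 1.63 FPKM. Insig1, a sensor of the sterol arm also named after its values were seen, went the other way, at 3.91 and 16.4 FPKM in LKO and 3.97 and 8.57 FPKM in WT. The livers were compared as labelled, and the hour at which each was taken is not given in the sources used here.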
